A study of Homo sapiens with 4 samples.

Results

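The 9 genes described here encode the enzymes and helper proteins that make coenzyme Q: PDSS1, PDSS2, COQ2, COQ3, COQ4, COQ5, COQ6, COQ7 and COQ9. They were chosen by name, as every gene probe on the array whose gene name equals a member. All 9 were found among the 27224 gene names of the array, on 12 probes that took up 30 spots of each array, and all 12 probes were well above background on all 4 arrays. RNA came from LNCaP and PC3 cells, human prostate cancer lines grown in RPMI medium with 10% FBS. LNCaP responds to androgen and PC3 grows without it. Each line was measured without treatment (LNCaP control, PC3 control) and after 24 h in 10 µM atorvastatin (LNCaP ATO, PC3 ATO). Atorvastatin is a statin, an inhibitor of the mevalonate pathway. No vehicle is named for the control samples in the labels.

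Each group was 1 array, so the differences below have no replicate check and rest on few arrays. The errors given beside them are technical: for a probe with 1 spot the scanner software's own error estimate, carried to the log2 ratio, and for a probe with 10 spots the standard error over its spots. The 4 arrays shared 1 slide, and position on the slide cannot be told apart from group. Between 48.5% and 52.9% of the 43118 gene spots were well above background on an array, no spot was saturated (0), and repeated spots of a probe had a median SD of 0.09 to 0.10 on the log2 scale. Local background was bright on 0.348% (control) and 14.1% (ATO) of gene spots in LNCaP, and on 8.35% (control) and 15.3% (ATO) in PC3. Markers of the lines followed the labels: all 5 LNCaP markers read here (KLK3 and TMPRSS2 among them) were at least 2-fold lower in PC3 control, and all 5 PC3 markers that were measured (VIM and CAV1 among them) at least 2-fold higher. The remaining PC3 marker, KRT5, was not well above background on any array.

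Coenzyme Q is a lipid of the inner mitochondrial membrane that carries electrons between the complexes of the respiratory chain and also acts as an antioxidant. It is a benzoquinone ring with a long isoprenoid tail. The tail is built from isoprenoid diphosphates, products of the mevalonate pathway, and the ring is then modified by a complex of COQ proteins in the mitochondrion.

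The genes were read through 60-base probes, and 3 of them (PDSS1, PDSS2 and COQ5) through a pair of probes. The probe sequences are shown for these 3 genes because the results turn on whether the members of a pair gave the same answer. The probe with the higher mean log2 level over the 4 arrays represents the gene in counts. This is the brighter probe of PDSS1 and of COQ5, and for PDSS2 the choice was nearly a tie. Positions are on hg18, the build of the files, and the strand is that of the gene. Both PDSS1 probes are shown whole. The brighter one lies at chr10:27064513-27071489 (plus strand). It spans 6977 bases of the genome, so its 60 letters come from separate exons. The dimmer one lies 11465 bases before it, at chr10:27052988-27053047.
PDSS1, brighter: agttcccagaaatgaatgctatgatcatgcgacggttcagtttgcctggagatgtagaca
PDSS1, dimmer: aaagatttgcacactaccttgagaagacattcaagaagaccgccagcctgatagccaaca

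The PDSS2 probes lie 121086 bases apart on the minus strand, the downstream one at chr6:107580787-107580846 and the upstream one at chr6:107701933-107701992. Their mean log2 levels over the 4 arrays were -1.155 and -1.157, and the downstream probe represents the gene by that small margin, although the upstream probe read higher on both LNCaP arrays. The upstream probe is shown whole, and 2 of its 3 forward reading frames are free of stop triplets. In the whole downstream probe all 3 frames hold a stop (0 of 3 free), and its first 30 bases are shown with the stop triplets in capitals. Those shown fall in 2 of the 3 frames, and the stop of the remaining frame is not within these 30 bases.
PDSS2, downstream: agctTAAgagaacactgttctgttTGAaat
PDSS2, upstream: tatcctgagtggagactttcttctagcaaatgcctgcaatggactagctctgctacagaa

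The COQ5 probes overlap by 21 bases and are thus not separate readings of the transcript. The brighter lies at chr12:119425738-119425797 and the dimmer at chr12:119425699-119425758, both on the minus strand. The last 30 bases of the brighter and the first 30 of the dimmer are shown, with the shared part in capitals.
COQ5, brighter: atctcccagAGGCATTTGGTCTGTATCTTT
COQ5, dimmer: AGGCATTTGGTCTGTATCTTTgctcaactg

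With ATO, 1 of the 9 synthesis genes passed 1.5-fold, in PC3. In LNCaP 0 of 9 passed 1.5-fold in either direction, and their log2 ratios (ATO over control) ran from -0.27 to 0.08 with a median of 0.0087. Over all genes 4.77% of 13739 passed and 1.97% were lower, with a median of 0. In PC3 only PDSS1 passed (1 of 9, lower). The 9 log2 ratios ran from -0.64 to 0.20 with a median of 0.02. In this line 18.5% of 13815 genes passed, and 10.2% were lower, so 1 of 9 lies near the share of all genes. The median over all genes was -0.0022.

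**Figure D1:**
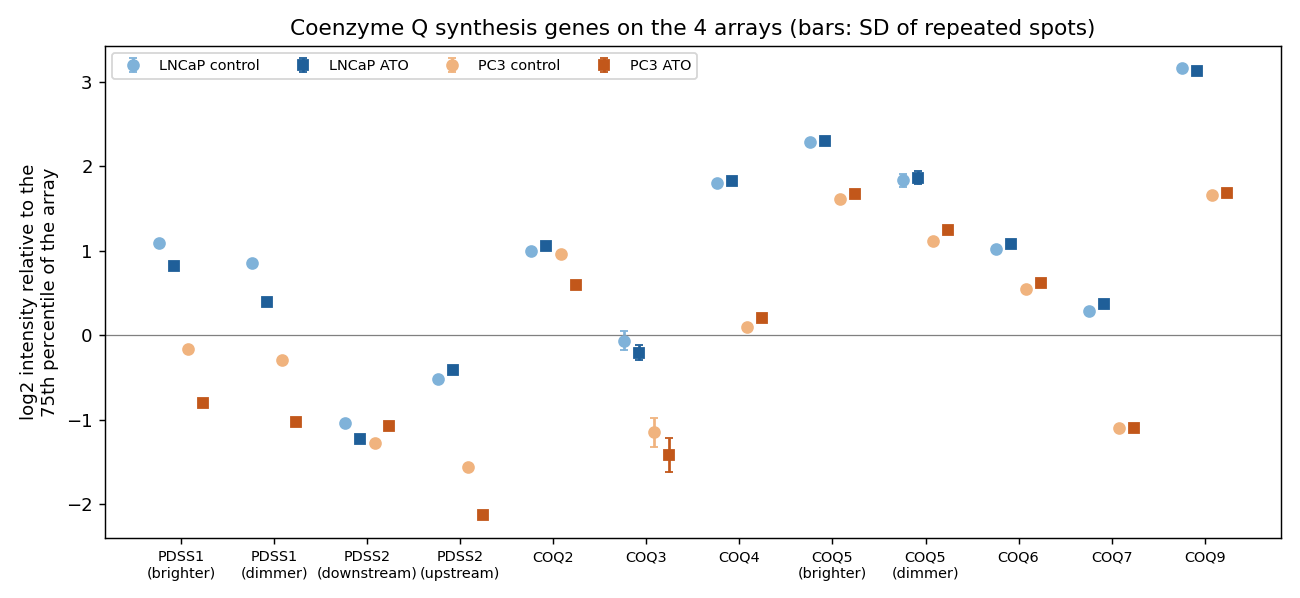
Level of the 12 probes (horizontal axis) on the 4 arrays, as log2 intensity relative to the array's 75th percentile (vertical axis). Circles are control arrays, squares ATO arrays, blue is LNCaP and orange PC3, and bars are the SD over repeated spots where a probe has 10. PDSS1 is lower with ATO in both lines on both probes, while COQ4, COQ7 and COQ9 separate by line and not by treatment.

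PDSS1 is a subunit of the synthase that builds the isoprenoid tail. Its brighter probe read 1395 intensity units in control and 1235 with ATO in LNCaP, and 690 in control and 426 with ATO in PC3. PC3 ATO was the lowest array and both PC3 arrays were below both LNCaP arrays. After scaling of each array to its 75th percentile, PDSS1 was 1.56-fold lower with ATO in PC3 (log2 ratio -0.64 ± 0.21), and its log2 ratio in LNCaP was -0.27 ± 0.21. The ratio in PC3 passed 1.5-fold by less than its own error. It was under 1.5-fold with the normexp background correction (-0.52) and with the 50th percentile scaling (-0.46). The latter moved the median of all genes measured on both arrays by 0.19. Relative to this median, the PDSS1 ratio in PC3 ran from -0.69 to -0.55 over 7 scalings. In LNCaP the PDSS1 ratio was -0.08 with the spike-in scaling, within its technical error.

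The dimmer PDSS1 probe gave the same direction in both lines. It read 1180 in control and 918 with ATO in LNCaP, and 631 in control and 366 with ATO in PC3. Its log2 ratio with ATO was -0.46 ± 0.21 in LNCaP and -0.74 ± 0.21 in PC3. Neither PDSS1 probe lay in a bright local background on any array. Of the genes measured on both arrays, 15.6% in LNCaP and 12.0% in PC3 had a ratio further from 0 than that of the brighter probe.

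PDSS2 is the other subunit of the tail synthase, and here the pair of probes did not give 1 answer. The downstream probe, which represents the gene, read 318 in control and 299 with ATO in LNCaP, and 318 in control and 353 with ATO in PC3. These 4 readings are close together, and its log2 ratios with ATO, -0.18 ± 0.21 in LNCaP and 0.20 ± 0.22 in PC3, are within their errors. The upstream probe read 455 in control and 527 with ATO in LNCaP, and 261 in control and 169 with ATO in PC3. Both PC3 arrays were below both LNCaP arrays on this probe, and its log2 ratio with ATO was 0.12 ± 0.21 in LNCaP and -0.57 ± 0.25 in PC3, just short of 1.5-fold. Its spot in PC3 control had a local background of 146 units, above the limit of 120 that marks a bright one on that array. In LNCaP ATO the local background of this probe was 142.5, just under the limit of 142.8 on that array. The part of these backgrounds in the ratios was not tested. The probes, 121086 bases apart, read different stretches of the gene, and no exon map of hg18 was used here to say which transcripts hold each.

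COQ2 is the prenyltransferase that joins the tail to the ring, in the inner membrane of the mitochondrion. Its probe (chr4:84410125-84412277, minus strand) read 1306 in control and 1459 with ATO in LNCaP, and 1497 in control and 1119 with ATO in PC3. PC3 ATO was the lowest and the other 3 arrays were close together. The log2 ratio with ATO was 0.06 ± 0.20 in LNCaP and -0.37 ± 0.21 in PC3, a difference of 1.29-fold that did not pass.

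**Figure D2:**
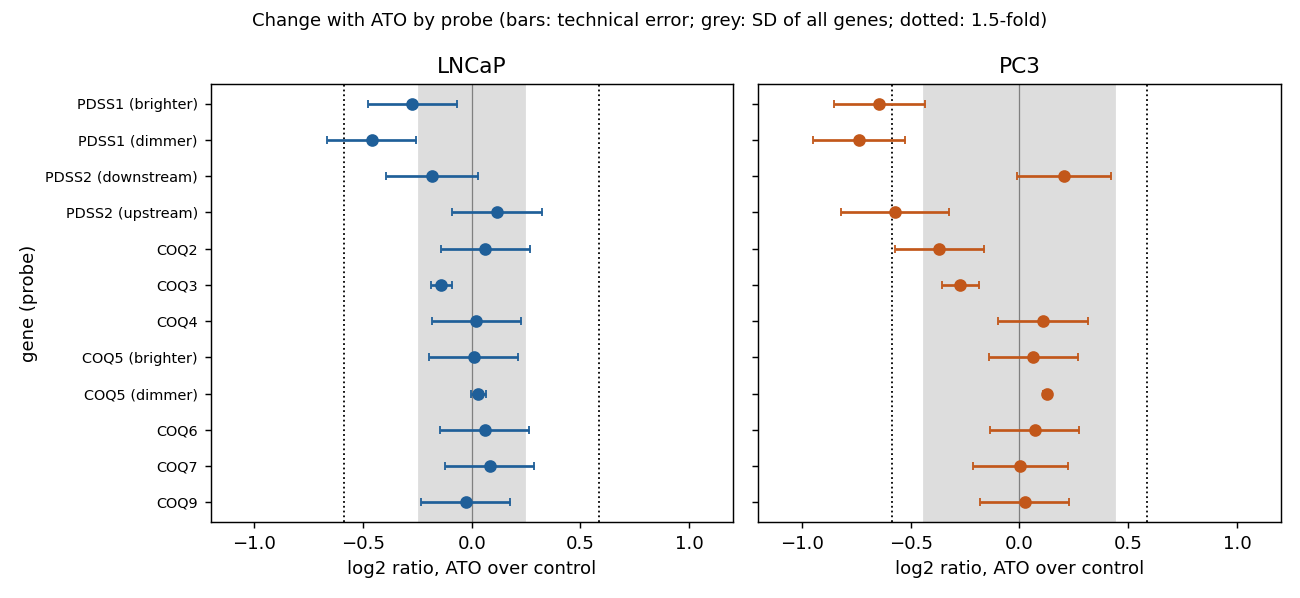
Log2 ratio of ATO over control (horizontal axis) for each probe (vertical axis), LNCaP left and PC3 right. Bars are the technical error, the grey band is 1 SD of all genes measured on both arrays (0.24 in LNCaP, 0.44 in PC3) and dotted lines mark 1.5-fold; both PDSS1 probes lie past the line in PC3, and the PDSS2 probes lie on opposite sides of 0 in both lines.

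COQ3 and COQ5 are the methyltransferases of the ring. The COQ3 probe (chr6:99926178-99930589, minus strand) has 10 spots, which averaged 625 intensity units in control (range 546 to 708) and 606 with ATO (565 to 685, on 8 spots) in LNCaP, and 347 in control (299 to 414) and 278 with ATO (233 to 375) in PC3. The spots of the LNCaP arrays did not overlap with those of the PC3 arrays, and those of control and ATO overlapped in both lines. The highest spot with ATO in each line (685 in LNCaP, 375 in PC3) lay in a bright local background. The log2 ratio with ATO was -0.14 ± 0.05 in LNCaP and -0.27 ± 0.08 in PC3. The small errors are those of repeated spots on 1 array and hold no spread between cultures. With the spike-in scaling the LNCaP ratio was 0.06.

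The brighter COQ5 probe read 3204 in control and 3448 with ATO in LNCaP, and 2353 in control and 2372 with ATO in PC3. Its log2 ratio with ATO was 0.01 ± 0.20 in LNCaP and 0.06 ± 0.20 in PC3. The dimmer probe, with 10 spots, averaged 2337 in control (range 2131 to 2493) and 2553 with ATO (2345 to 2891) in LNCaP, and 1672 in control (1632 to 1720, on 7 spots) and 1760 with ATO (1683 to 1903) in PC3. Both probes thus gave COQ5 the same order of lines, with ratios for ATO of 0.03 ± 0.04 and 0.13 ± 0.02 on the dimmer, neither near 1.5-fold.

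COQ6 and COQ7 are hydroxylases that add oxygen to the ring. COQ6 (chr14:73495936-73497645, plus strand) read 1327 in control and 1479 with ATO in LNCaP, and 1128 in control and 1143 with ATO in PC3. COQ7 (chr16:18998604-18998663, plus strand) read 800, 906, 359 and 347 in the same order. The lines were apart for COQ7, and control and ATO differed by less than the technical error for both genes. The log2 ratios with ATO were 0.06 ± 0.20 and 0.07 ± 0.20 for COQ6, and 0.08 ± 0.21 and 0.0039 ± 0.22 for COQ7, LNCaP first.

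COQ4 and COQ9 are proteins without which the pathway stalls, COQ9 being a lipid-binding partner of COQ7. COQ4 (chr9:130135599-130135658, plus strand) read 2282 in control and 2479 with ATO in LNCaP, and 826 in control and 859 with ATO in PC3. COQ9 (chr16:56052249-56052308, plus strand) read 5852, 6142, 2432 and 2386 in the same order. For both genes the PC3 arrays were far below the LNCaP arrays and the treatments were close. The log2 ratio with ATO was 0.02 ± 0.20 and 0.11 ± 0.21 for COQ4, and -0.03 ± 0.20 and 0.02 ± 0.20 for COQ9.

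The treatment was tested over both lines in 1 limma fit with cell line as a block. This fit had 1 residual degree of freedom, and the lines stood in for replicates. None of the 11902 genes tested passed (0, or 0%, at an adjusted p of 0.05), and 525 had an unadjusted p under 0.05 (600 with an intensity trend in the prior). No synthesis gene (0 of 9) was among those 525. PDSS1 had the largest mean log2 difference of the 9 genes, -0.46 (SE 0.16), with a limma adjusted p of 0.759. The limma adjusted p of the other 8 genes lay between 0.759 and 0.997. A p that misses the threshold does not show that the levels were equal.

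The response of PC3 minus that of LNCaP, on the log2 scale, was -0.37 for PDSS1, 0.39 for PDSS2 and -0.43 for COQ2. It lay between -0.13 and 0.09 for the other 6 genes. On the upstream PDSS2 probe it had the opposite sign, -0.69 ± 0.33. Over 11016 genes measured on all arrays this difference had a median of -0.0004 and an SD of 0.43. None of the 9 genes lay further from 0 than about 1 SD of all genes on the probe that represents it, and the upstream PDSS2 probe did. With 1 array a group the difference between lines was not tested.

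The largest differences of these genes were between the lines. In the control arrays 5 of 9 were at least 2-fold lower in PC3 and 0 were higher. These were COQ4 (log2 ratio PC3 over LNCaP -1.70 ± 0.21), COQ9 (-1.50 ± 0.20), COQ7 (-1.39 ± 0.21), PDSS1 (-1.25 ± 0.21) and COQ3 (-1.08 ± 0.07). Over all genes 39.6% of 15237 passed 2-fold between the control arrays, and 18.9% were lower in PC3. The median over the 9 genes was -1.08, against -0.04 over all genes. COQ5 (-0.68), COQ6 (-0.47), PDSS2 (-0.24) and COQ2 (-0.04) did not pass. The sign turned with the scaling for COQ2 (-0.53 to 0.47), PDSS2 (-0.73 to 0.27) and COQ6 (-0.96 to 0.04).

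The ATO arrays gave the same 5 genes as at least 2-fold lower in PC3. Of 14148 genes in this comparison, 39.2% passed 2-fold in either direction, and 2996 of the 14148 were lower. COQ4 was at -1.62, COQ9 at -1.45, COQ7 at -1.47, PDSS1 at -1.63 and COQ3 at -1.22. The upstream PDSS2 probe was also past 2-fold in both comparisons (-1.04 in control, -1.73 in ATO), unlike the downstream probe (-0.24 and 0.15). The dimmer probes of PDSS1 (-1.14 and -1.42) and COQ5 (-0.72 and -0.63) lay near their partners.

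**Figure D3:**
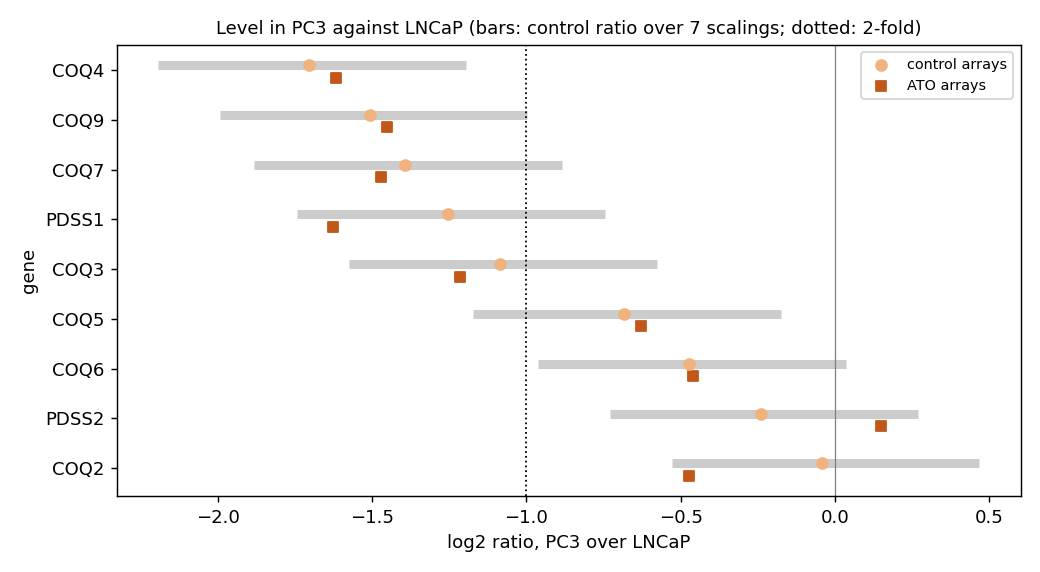
Log2 ratio of PC3 over LNCaP (horizontal axis) for each gene (vertical axis), circles for the control arrays and squares for the ATO arrays. Grey bars give the range of the control ratio over 7 scalings and the dotted line marks 2-fold lower; COQ4, COQ9, COQ7, PDSS1 and COQ3 lie left of it in both comparisons, and the bars of COQ6, PDSS2 and COQ2 cross 0.

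Tested over both treatments, the lines differed in 7 of 9 genes, against 6381 of 11902 genes tested (53.6%) by limma at an adjusted p of 0.05. In this fit the control and ATO arrays of a line stood in for replicates, so the p-values measure only the spread between these arrays. COQ4 was 3.16-fold lower in PC3 (mean log2 difference -1.66, SE 0.13, limma adjusted p = 0.00496). COQ9 (-1.48), PDSS1 (-1.44), COQ7 (-1.43) and COQ3 (-1.15) followed, with limma adjusted p from 0.00555 to 0.00836. COQ5 was lower by a mean log2 difference of -0.66 (SE 0.13, limma adjusted p = 0.0233) and COQ6 by -0.47 (SE 0.13, limma adjusted p = 0.0499). COQ6 lies at the threshold and did not pass under several alternatives. Its limma adjusted p was 0.0501 with outlier spots kept, 0.0567 with quantile normalization and 0.0583 with the median over probes. With normexp the limma adjusted p of COQ6 was 0.0609, and with cyclic loess 0.126. With the spike-in scaling the limma adjusted p was 0.836 for COQ6, 0.522 for COQ5 and 0.0567 for COQ3, and with no filter on dim probes 0.335, 0.19 and 0.0642, so none of these 3 passed there. COQ2 (-0.26, SE 0.17, limma adjusted p = 0.278) and PDSS2 (-0.04, SE 0.16, limma adjusted p = 0.835) did not pass. With the median over its 2 probes PDSS2 had a limma adjusted p of 0.0247. With the 50th percentile scaling COQ2 had a limma adjusted p of 0.0248.

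The size of the line difference moved with the scaling. The median of genes measured on both control arrays shifted by -0.49 (50th percentile) to 0.51 (spike-in probes). With the spike-in scaling only 1 of the 9 genes, COQ4, passed 2-fold. Relative to the median of genes measured on both control arrays the values moved less. Over 7 scalings COQ4 ran from -1.60 to -1.50, COQ9 from -1.39 to -1.27 and COQ7 from -1.30 to -1.03. PDSS1 ran from -1.15 to -1.02 and COQ3 from -0.99 to -0.84. In bulk RNA a lower level in all cells and a smaller share of cells with the transcript cannot be told apart.

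The tail is made from the same isoprenoid diphosphates that go to sterols and to protein prenylation, and the enzymes around this branch point are given here beside the synthesis genes. Of 15 genes that make or share the precursors, 6 were at least 1.5-fold higher with ATO in LNCaP and 5 in PC3, and 0 were lower in either line, with median log2 ratios of 0.22 and 0.40. Over all genes the shares past 1.5-fold in either direction were 4.77% and 18.5%. In LNCaP the higher genes were HMGCS1 (1.87), which makes HMG-CoA, the kinase MVK (0.65), the decarboxylase MVD (1.01), the isomerase IDI1 (0.94), the thiolase ACAT2 (0.72) and squalene synthase FDFT1 (0.94). In PC3 they were FDFT1 (0.96), MVD (0.88), ACAT2 (0.78), HMGCS1 (0.63) and GGPS1 (0.65), which makes geranylgeranyl diphosphate. Of these, HMGCS1, MVD and GGPS1 had a spot in a bright local background on 1 of the 4 arrays and MVK on 2, and its part in the ratios was not tested. A further probe of DHDDS, not the one that represents it, was also past 1.5-fold in PC3 (0.62). Whether the groups differ was not tested.

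**Figure D4:**
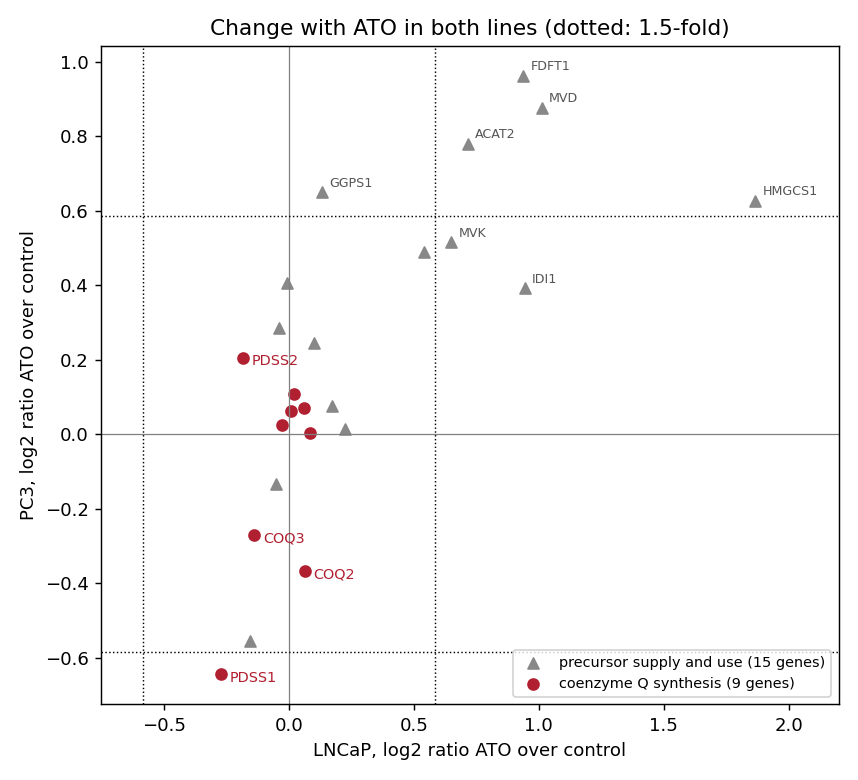
Log2 ratio of ATO over control in LNCaP (horizontal axis) and PC3 (vertical axis) for the 9 coenzyme Q synthesis genes (red circles) and the 15 precursor genes (grey triangles), with dotted lines at 1.5-fold. The precursor genes past a line lie above or to the right of it, and PDSS1 is the only red circle past a line.

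Other coenzyme Q genes were read from a list of 10 on the array. In LNCaP 0 of the 9 with a value passed 1.5-fold with ATO (median -0.11), and in PC3 1 of 8 did (median -0.07), near the 10.2% of all genes that were lower. That gene was CABC1, the atypical kinase now called COQ8A, which sustains the COQ complex. CABC1 read 1166 in control and 1033 with ATO in LNCaP, and 623 in control and 309 with ATO in PC3. As with PDSS1, PC3 ATO was the lowest array, and the log2 ratio was -0.96 in PC3 and -0.27 in LNCaP. Between the control arrays 3 of 9 were at least 2-fold lower in PC3, against 18.9% of all genes. These were CABC1 (-1.14), its paralog ADCK4 (-2.22) and COQ10A, a coenzyme Q binding protein. COQ10A was 3.52-fold lower, taken from its own PC3 control reading of 72 units, which was not well above background. The genes of the ring precursor, TAT and HPD, had no probe well above background, so 0 of 2 have a value.

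The promoters of the synthesis genes were searched because the mevalonate genes are known targets of SREBP, which binds sterol response elements. Sequences 250 bases before to 50 after the start came from RefSeq (GRCh38.p14), which held 12 promoters for 7 of the 9 genes, with COQ3 and COQ4 missing from the table. The letters TCACNCCAC, on either strand, were in 1.13% of 35116 promoters and in that of 1 synthesis gene, COQ5. The match lies 36 to 28 bases before the start, at chr12:120529175-120529204 with its flanks (minus strand), and is shown in capitals.
COQ5 promoter: gccgtcgttcGTGGAGTGAcgcaacaaggc

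COQ5 had log2 ratios with ATO of 0.01 and 0.06, given above. The NRF1 letters GCGCATGCG, in 1.92% of promoters, and the ETS letters CCGGAAG, in 10.3%, were searched in the same way on both strands and had 0 matches among the 7 genes. No match says only that these letters are not in this window.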

How the data were processed

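The authors scanned 1-colour Agilent arrays and deposited the intensity of each spot on a linear scale, from Agilent Feature Extraction 9.5.3.1. Per the file headers, the processed signal was background-subtracted, and calls for spots well above background, saturation and outliers were added. A further deposited table gives, for each probe, the ratio of its signal to the level of its array.

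From these files, outlier spots were left out, the remaining processed intensities of a probe were averaged as log2 values, and the 75th percentile over gene spots of the array was subtracted. The brightest probe with values on all 4 arrays represents a gene. A gene was counted when 1 or both of the 2 arrays had it well above background and it was past 1.5-fold (2-fold between lines). Where 1 array was dim, the higher of its own reading and the lowest value well above background stood in for it. The fold is then a bound where that lowest value was used. A spot had a bright local background when it lay over 3 scaled MADs above the array's median. Within a line there are no replicates and no test. Treatment and line were tested with limma 3.58.1 (R 4.3.3, lmFit and eBayes, two-sided, Benjamini-Hochberg, threshold 0.05). In the main fit, the 11902 genes tested were those well above background in both lines under at least 1 treatment. A gene well above background in only 1 line was thus not tested. Other scalings were the 50th percentile, quantile, cyclic loess, 6 spike-in probes, normexp (offset 50) and the deposited table. Also tried were other filters on dim probes, the median over probes, outlier spots kept, bright local backgrounds left out and other thresholds. The scripts were tested on simulated data. All 9 members are named, and of the other lists those past 1.5-fold with ATO in a line, measured on both arrays. The list genes named for a difference between lines, and SDHA and DHDDS, were chosen after their values were seen. The members and lists were chosen with earlier results of these data known. Gene names are those of the array design. Some genes of the lists are not reported here and were left out of the lists' counts and medians.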

Additional observations from a re-analysis of the deposited data

Results flagged for a closer look

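In 3 genes the log2 ratio of ATO over control had opposite signs in the lines. PDSS2 was at 0.20 in PC3 and -0.18 in LNCaP, on its downstream probe, which represents the gene. On its upstream probe the signs were turned the other way, -0.57 in PC3 and 0.12 in LNCaP. COQ2 was at -0.37 in PC3 and 0.06 in LNCaP, and COQ9 at 0.024 in PC3 and -0.03 in LNCaP. With 1 array a group, the difference between lines was not tested, and none of these ratios on the probe representing the gene passed 1.5-fold. For PDSS2 and COQ9, each ratio was within its technical error.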

How the results depend on the processing

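No synthesis gene passed 1.5-fold with ATO in LNCaP under any alternative tried. In PC3 the count of 1 (PDSS1) became 0 with the 50th percentile scaling, with normexp and with a 2-fold threshold. The median over the 9 genes moved from 0.0087 to 0.21 with the spike-in scaling in LNCaP. In PC3 it moved from 0.02 to 0.21 with the 50th percentile scaling. These settings also moved the median of genes measured on both arrays, by 0.20 and 0.19. Between the control arrays the count of 5 became 1 with the spike-in scaling. The limma count for the lines went from 7 to 4 with the spike-in scaling and to 4 with no filter on dim probes, where COQ3, COQ5 and COQ6 no longer passed. It was 8 with the 50th percentile scaling, where COQ2 passed too, a value counted among the 84 that follow. Another 84 values of counts and medians under the alternatives stayed within 1.5 times the count or 0.133 of the median. Of the values for single genes 296 stayed within 0.133 of the value given, on the log2 scale, and 53 moved further. COQ3 had no value with ATO once bright local backgrounds were left out, as some of its spots lay in them. Chosen after seeing the data, centring on the median of genes measured on both arrays gave counts of 0, 1 and 4 (LNCaP, PC3, control lines). The other probe of PDSS1, PDSS2 and COQ5, also chosen then, gave 0, 1 and 6. These genes were all well above background on all 4 arrays. How background was handled still mattered, for the PC3 count with normexp and for COQ3 with ATO. The main limit is 1 array a group. The labels carry no replicate numbers, so the only block was the cell line in the limma fit of the treatment, and with 1 array a group none could be left out.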

Other observations

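Enzymes that reduce coenzyme Q outside complex I were read from a list of 14 genes on the array. The list also holds ETFA and ETFB, of the electron transfer flavoprotein that feeds the reductase ETFDH. With ATO 0 of 14 passed 1.5-fold in LNCaP (median log2 ratio 0.01). In PC3 2 of 13 with a value were lower (median 0.12), against 10.2% of all genes. DHODH, which makes a pyrimidine precursor, read 1381 in control and 1495 with ATO in LNCaP, and 555 in control and 306 with ATO in PC3, log2 ratios of 0.02 and -0.81. Its spot lay in a bright local background on 1 array, and the part of this in the ratio was not tested. CHDH, choline dehydrogenase, was at -0.11 in LNCaP and -1.16 in PC3, and its other probe at -0.13 and -1.14. SDHA, of succinate dehydrogenase, had a log2 ratio of -0.08 in both lines on the probe that represents it. Another of its probes was at -0.91 in LNCaP and 0.68 in PC3. The first lay in a bright local background on 2 arrays and the other on 1, and the part of this was not tested. Its remaining probes were at -0.49 and 0.07 in LNCaP, and at -0.19 and -0.24 in PC3.

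Between the control arrays 3 of the 14 were at least 2-fold higher in PC3 and 5 lower. Over all genes 39.6% passed 2-fold and 18.9% were lower. AIFM2, a coenzyme Q reductase known for its part in resistance to ferroptosis, was higher by a log2 ratio of 3.35, the sulfide oxidase SQRDL by 1.77 and the mitochondrial glycerol phosphate dehydrogenase GPD2 by 1.18. The electron transfer flavoprotein genes were lower, ETFA at -2.02, ETFB at -1.32 and the reductase ETFDH at -1.22, as were DHODH (-1.55) and CHDH (-2.23).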
